A study of Mus musculus with 22 samples.

Results

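Common myeloid progenitors (CMPs) and granulocyte-macrophage progenitors (GMPs) of wild-type mice were compared by RNA sequencing, to describe the change in expression from one population to the other where Arid1a, the SWI/SNF subunit deleted in the knockout arm of the study, was intact. The comparison used 6 of the 22 samples of the series: the CMP and the GMP library of each of mice 300, 305 and 309, selected by their titles and wild type label and paired by mouse. The remaining 16 samples were the megakaryocyte-erythroid progenitors (MEPs) of the same 3 mice, whose values are set beside some results, 9 libraries of knockout precursors and 4 of long-term stem cells. The wild-type animals were Arid1a f/f littermates without the Mx1-Cre transgene, from a floxed line that had been backcrossed to C57BL/6. They had received poly(I:C), the agent that switches Mx1-Cre on and that also evokes interferon, as had the knockout animals, at an age of 8 to 14 weeks, and marrow was sorted 4 weeks later. CMPs were gated as lineage-negative Kit+ Sca1- CD34+ cells with low Fcγ receptor II/III, and GMPs as the same cells with high Fcγ receptor II/III, so both populations are mixtures defined by surface markers.

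CMPs give rise to GMPs, which make granulocytes and monocytes, and to MEPs, which make red cells and platelets. The factors C/EBPα, PU.1, GFI1 and C/EBPε drive the granulocyte and monocyte programme, while GATA1, GATA2, FOG1 (Zfpm1) and KLF1 drive the erythroid and megakaryocyte programme, and the PU.1 and GATA1 proteins oppose each other. Primary granules, the peroxidase and protease stores of neutrophils, are filled at the promyelocyte stage, before the specific and gelatinase granules of later neutrophils are made.

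The stretches before the transcription starts of 4 genes that turned out to move strongly are printed here. These are the granule protease genes Elane and Ctsg, Ms4a3, which encodes a membrane protein of granulocyte precursors, and the erythropoietin receptor gene Epor. They come from RefSeq (GRCm38.p6), were cut to end before both the RefSeq start and the outermost start of the gene in GENCODE, and run 5′ to 3′ on the strand of the gene. Capitals mark matches, on either strand, to the letters GAGGAA of PU.1 (Elane, Ctsg), AACNG of MYB (Ctsg), TTNNGNAA of C/EBP (Ms4a3) and NGATAA of GATA (Epor). The Elane stretch lies at chr10:79886062-79886246 (+), Ctsg at chr14:56102575-56102824 (-), Ms4a3 at chr19:11640852-11641101 (-) and Epor at chr9:21963577-21963826 (-).
Elane: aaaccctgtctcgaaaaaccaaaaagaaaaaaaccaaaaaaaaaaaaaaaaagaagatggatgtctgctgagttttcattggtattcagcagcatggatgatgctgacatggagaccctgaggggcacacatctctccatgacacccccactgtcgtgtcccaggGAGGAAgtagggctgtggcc
Ctsg: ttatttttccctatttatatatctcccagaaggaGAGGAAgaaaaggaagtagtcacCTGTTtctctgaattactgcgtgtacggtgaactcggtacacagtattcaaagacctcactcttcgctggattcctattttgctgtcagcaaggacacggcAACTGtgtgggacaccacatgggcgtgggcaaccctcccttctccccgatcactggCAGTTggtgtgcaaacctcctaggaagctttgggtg
Ms4a3: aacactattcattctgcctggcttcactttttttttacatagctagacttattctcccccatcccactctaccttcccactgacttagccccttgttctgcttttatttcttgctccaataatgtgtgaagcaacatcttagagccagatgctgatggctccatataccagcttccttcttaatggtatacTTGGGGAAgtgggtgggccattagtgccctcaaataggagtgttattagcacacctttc
Epor: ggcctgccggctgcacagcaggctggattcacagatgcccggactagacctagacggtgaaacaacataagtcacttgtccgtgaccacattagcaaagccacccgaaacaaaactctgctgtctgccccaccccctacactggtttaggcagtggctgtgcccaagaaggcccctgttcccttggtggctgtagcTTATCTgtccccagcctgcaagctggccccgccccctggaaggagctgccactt
Among 32851 RefSeq windows of 250 bases before a start, 23.3% held the PU.1 letters, 74.2% the MYB letters, 36.8% the C/EBP letters and 22.5% the GATA letters. A match therefore only describes these stretches, and whether any match is a binding site was not tested. The 185 bases of Elane held 1 match to PU.1 and 0 to C/EBP and MYB, the 250 bases of Ctsg held 1 to PU.1 and 3 to MYB, those of Ms4a3 held 1 to C/EBP, and those of Epor held 1 to GATA and 1 to MYB. The window of Epx, an eosinophil peroxidase gene described below, held 0 matches to the PU.1, MYB and C/EBP letters. That of Pf4, a platelet chemokine gene described below that fell, held 0 to GATA but 2 to C/EBP, 1 to PU.1 and 3 to MYB.

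The libraries held 42575696 to 58078633 estimated counts on genes in CMPs and 49399386 to 60703599 in GMPs. Levels are given as FPKM, fragments per kilobase of effective transcript length scaled to sequencing depth by TMM, and changes as log2 fold changes of GMP over CMP from edgeR's quasi-likelihood test with the mouse as a block. A gene was called when its Benjamini-Hochberg adjusted p was under 0.1, its log2 fold change beyond 0.5 and its mean above 1 FPKM. Of 17081 genes tested, 1455 (8.52%) were higher and 1631 (9.55%) lower in GMPs. These 2 shares are the background against which the counts of the gene groups below are read. Only the 12548 genes with a mean above 1 FPKM could be called, so both shares are larger among those genes. In 1412 of the genes called higher and 1564 of those called lower all 3 mice moved the same way and the populations did not overlap. The median standard error was 0.081 among genes with a mean above 1 FPKM, and the median log2 fold change of all genes tested was 0.0016. TMM factors were 1.04 to 1.06 in CMPs and 0.927 to 0.965 in GMPs. Scaling by library totals instead moved the median of all genes by -0.15 and the share of called genes that were higher from 47.1% to 33.2%, so all changes are relative to the bulk of genes. Across 12548 genes with a mean above 1 FPKM the log2 ratios of any 2 mice had Pearson correlations of 0.71 to 0.80 (genes are not independent replicates).

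**Figure D1:**
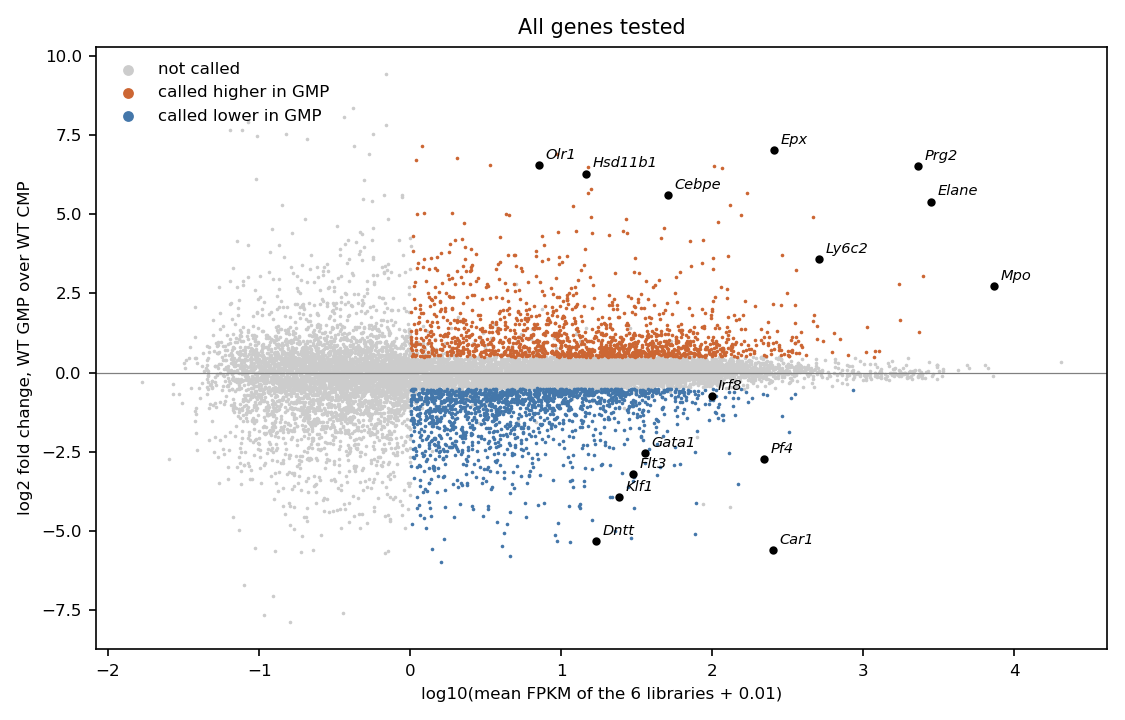
Log2 fold change of GMP over CMP (vertical axis) against the log10 mean FPKM of the 6 libraries (horizontal axis) for all 17081 genes tested; orange points are the 1455 called higher, blue points the 1631 called lower, grey points were not called, and black points are named. Granule genes (Mpo, Elane, Prg2) lie at the high end of both axes, while Car1 and Pf4 are the most abundant of the named genes that fell.

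The Fcγ receptor genes, whose products separate the gates, were higher in GMPs, which is no finding. Fcgr3 was at 8.23, 5.98 and 9.57 FPKM in the CMPs of mice 300, 305 and 309 and at 220.2, 199.5 and 211.3 FPKM in their GMPs, and Fcgr2b rose by 2.22 on the log2 scale. Kit (log2 fold change -0.33, edgeR adjusted p = 0.012) and Cd34 (-0.47, edgeR adjusted p = 0.00086) were lower in GMPs, but by less than the limit on size, so neither was called. Ly6a, which encodes Sca1, the marker both gates exclude, fell (-1.95, edgeR adjusted p = 0.00021), being at 4.08 ± 1.28 FPKM in CMPs and 1.04 ± 0.238 in GMPs (SD, n = 3 each). Arid1a itself was at 57.2, 54.0 and 56.5 FPKM in CMPs and 44.6, 59.7 and 48.4 in GMPs (log2 fold change -0.15, 95% interval -0.37 to 0.08). Of 25 SWI/SNF subunits tested 1, Dpf3, was called (-1.61), while 3 were called lower with library totals and 2 without mouse 300. The median of the 25 was -0.13, with 21 below 0 and 4 above. An edgeR adjusted p under 0.1 was reached by 10 of them, against 45.7% of all genes tested.

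Genes of the primary granule rose together. Of 15 tested, 13 were higher in GMPs and the other 2 were not called, with a median log2 fold change of 2.51. Mpo, which encodes myeloperoxidase, was at 1693, 1964 and 2103 FPKM in the CMPs and at 13567, 12806 and 12079 FPKM in the GMPs of mice 300, 305 and 309 (log2 fold change 2.74 ± 0.16 SE, edgeR adjusted p = 4.0e-06). Elane, neutrophil elastase, was at 116.9, 130.2 and 140.9 FPKM in CMPs and at 6213, 5256 and 4957 in GMPs (5.40 ± 0.15, edgeR adjusted p = 1.2e-07), a 42.2-fold difference. In both genes every GMP library was above every CMP library, and the spread between mice was small beside the change. The serine protease genes Prtn3 (540.8 ± 94.6 to 4441 ± 402.9 FPKM, mean ± SD, n = 3) and Ctsg (430.4 ± 35.8 to 3012 ± 303.7 FPKM) rose by 3.05 and 2.81 on the log2 scale, and Prss57, another serine protease of this granule, by 3.47. Ms4a3, a membrane protein of granulocyte precursors that was counted with this list, rose by 4.90. The list took 0.572% to 0.670% of all counts on genes in CMPs and 3.58% to 3.97% in GMPs, and Mpo, Elane, Prg2 and Prtn3 were 4 of the 5 most abundant protein-coding genes by FPKM in GMPs, whereas the 10 most abundant in CMPs were Eef1a1, Ppia, Ptma and 7 ribosomal protein genes. The 2 members not called were Ctsc (log2 fold change 0.34), which activates the granule proteases, and Lyz2 (-0.19), lysozyme, at 115.8 ± 7.25 FPKM in CMPs and 101.5 ± 12.2 in GMPs.

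Late neutrophil genes split. Of 23 tested, 11 were higher in GMPs and 12 were not called (median 0.58, or 1.07 without mouse 300). Hsd11b1, an enzyme that regenerates active glucocorticoid, went from 0.520, 0.308 and 0.269 FPKM in CMPs to 34.8, 25.6 and 25.9 in GMPs (6.28 ± 0.12), and Cebpe, the factor required for specific granules, from 2.67, 1.27 and 2.38 to 104.1, 98.7 and 95.8 FPKM (5.60 ± 0.19, edgeR adjusted p = 2.6e-07). Trem3, an activating receptor, rose by 4.24. The specific granule genes Ltf, lactoferrin (log2 fold change -0.19 ± 0.12), Camp, cathelicidin (-0.25 ± 0.15), and Ngp (-0.01 ± 0.12) were not called and remained low in both populations. These uncalled genes differed more between mice than between populations: S100a9, a calgranulin, was at 98.8, 20.6 and 44.0 FPKM in the CMPs and at 111.1, 22.2 and 46.8 FPKM in the GMPs of mice 300, 305 and 309. Mouse 300 was highest in 9 of the 12 uncalled members in CMPs and in 10 in GMPs, and mouse 305 lowest in 11 and 10. Of 3 markers of mature neutrophils, Ly6g was at 0.0480 to 0.479 FPKM in all 6 libraries, Cxcr2 at 3.64 to 5.83 FPKM and not called, and Retnlg rose, and their summed level was 7.34 to 13.7 FPKM in CMPs and 15.7 to 19.3 in GMPs.

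**Figure D2:**
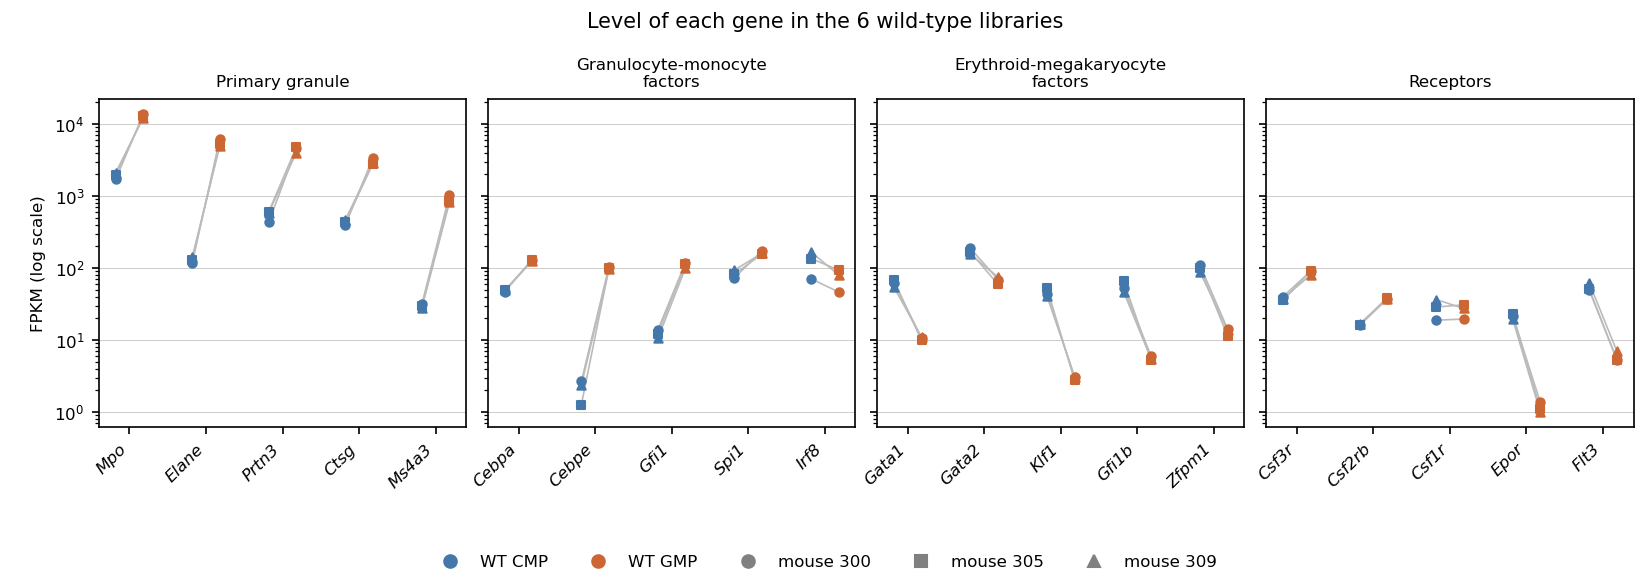
FPKM (log scale) of named genes in the 6 libraries, grouped by role; blue points are CMPs, orange points GMPs, the symbols stand for the 3 mice and grey lines join the libraries of 1 mouse. The primary granule genes, Cebpe and Gfi1 are separated by far more than the spread between mice, Csf1r overlaps, and the erythroid and megakaryocyte factors lie lower in GMPs in every mouse.

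Among 30 transcription factors of granulocyte and monocyte development, 9 were higher and 8 lower in GMPs (median -0.09). The C/EBP family supplied 3 of the 4 largest rises, led by Cebpe (5.60), which was counted among the late neutrophil genes as well. Cebpa was at 47.2, 48.9 and 48.9 FPKM in CMPs and 130.9, 130.9 and 126.2 in GMPs (1.42 ± 0.06, edgeR adjusted p = 8.6e-07), Cebpd rose by 2.13, and Gfi1, a repressor of monocyte genes, rose from 13.9, 12.3 and 10.5 to 118.4, 112.3 and 100.3 FPKM (3.18 ± 0.07). Spi1, which encodes PU.1, rose by 0.98 ± 0.09, from 73.3, 81.9 and 93.9 to 173.4, 156.6 and 159.7 FPKM. Myb, the most abundant of the list, rose by 0.71. Falls included Egr1 (-2.45, or -3.21 without mouse 309), an immediate early factor, Rara (-1.28), the retinoic acid receptor α gene, and Vdr (-0.86), the vitamin D receptor gene. Irf8, the factor of monocyte and dendritic cell fate, was at 71.1, 135.5 and 167.5 FPKM in CMPs and at 46.5, 93.9 and 80.3 FPKM in GMPs (-0.73 ± 0.10, edgeR adjusted p = 0.00059): it was lower in the GMPs of each mouse, although the populations overlapped, mouse 300 being low in both. Runx1 was not called (-0.25).

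Of 29 monocyte and dendritic cell genes, 3 were higher and 6 lower (median -0.38). Ly6c2, a monocyte surface antigen, rose from 81.2 ± 26.9 to 934.4 ± 73.8 FPKM (3.58 ± 0.20), and Cd14, the co-receptor for lipopolysaccharide, and Adgre1, the F4/80 antigen, rose from low levels to 2.82 ± 0.425 and 3.22 ± 0.401 FPKM. Csf1r, the receptor for macrophage colony-stimulating factor, was at 18.9, 28.8 and 36.6 FPKM in CMPs and 19.6, 30.8 and 27.5 in GMPs (-0.09, 95% interval -0.32 to 0.14), and was not called. The dendritic cell genes Zbtb46 (-3.47), a factor also detected at 21.5 FPKM in MEPs, and Clec9a (-1.73, or -2.39 without mouse 305 and -0.98 without mouse 309) fell, as did the protease gene Ctss (-1.38). In CMPs mouse 300 was the lowest in 24 of the 29 genes, in GMPs in 16. Without mouse 300 the number lower was 12 instead of 6.

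Genes of basophils, mast cells and eosinophils made the largest rises of all lists: 17 of 21 tested were higher and 2, Ltc4s (-2.23) and Il1rl1 (-1.03), lower, with a median of 3.33. Another 5 listed genes, Cma1, Mcpt4, Tpsab1, Tpsb2 and Il13, did not pass the filter on low counts and are not in this count. Epx, eosinophil peroxidase, was at 4.07, 3.05 and 3.80 FPKM in CMPs and at 257.6, 703.2 and 569.3 FPKM in GMPs (7.01 ± 0.35, edgeR adjusted p = 1.8e-06). Prg2, eosinophil major basic protein, went from 56.2, 26.7 and 69.3 to 2621, 5040 and 6088 FPKM (6.51 ± 0.38), and Prss34, a basophil protease, from 1.46, 1.48 and 4.01 to 125.9, 175.1 and 310.2 FPKM (6.51 ± 0.13). The populations did not overlap for any of these 3, although the mice differed within each population. For 6 eosinophil genes chosen after their values were seen (Prg2, Prg3, Epx, Ear1, Ear2, Ear6), mouse 300 was lowest in GMPs in 6 of 6 and mouse 305 lowest in CMPs in 6 of 6, and the highest mouse exceeded the lowest 2.73-fold in GMPs at the median, against 1.16-fold for the 12548 genes above 1 FPKM. Their summed level in the GMPs of mice 300, 305 and 309 was 3399, 7266 and 7987 FPKM. Counts of Ear1, Ear2 and Ear6 are uncertain, since these near-identical genes share reads. The basophil and mast cell markers Mcpt8, Prss34 and Cpa3 (3 of 3 called higher) summed to 49.2 to 133.2 FPKM in CMPs and 475.6 to 823.1 FPKM in GMPs, with none at 0. In bulk libraries a larger share of cells of one type and more RNA per cell cannot be told apart, here and in every result above and below.

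**Figure D3:**
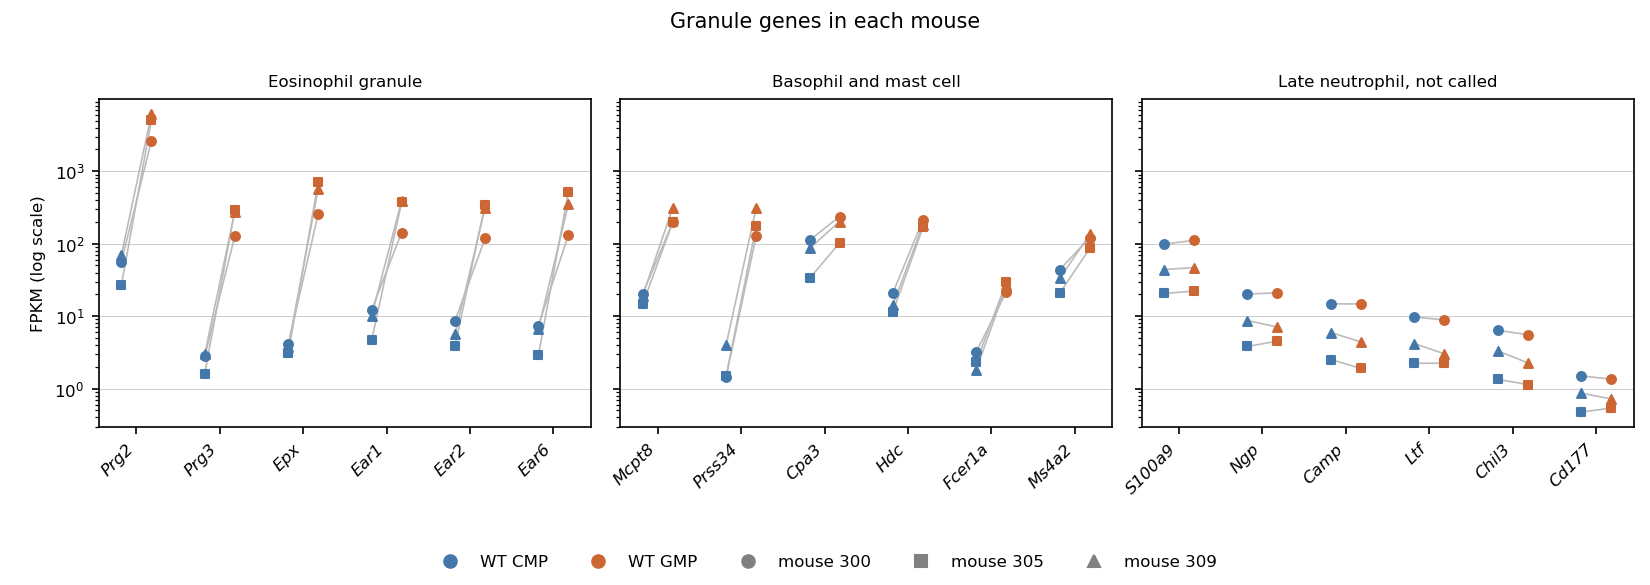
FPKM (log scale) of 6 eosinophil, 6 basophil and mast cell and 6 uncalled late neutrophil genes, chosen after their values were seen; colours are populations and symbols mice, as in the plot of genes by role. Eosinophil genes rise in each mouse but least in mouse 300, while the late neutrophil genes keep the order of the mice in both populations and barely differ between populations.

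The erythroid and megakaryocyte programme was lower in GMPs. Of 27 transcription factors of this branch 17 fell and 2 rose (median -0.69). Klf1 was at 43.4, 52.7 and 40.7 FPKM in CMPs and 3.08, 2.76 and 3.10 in GMPs (-3.93 ± 0.11, edgeR adjusted p = 1.5e-07), and Gata1 at 62.5, 67.4 and 54.4 against 10.8, 9.92 and 11 FPKM (-2.53 ± 0.10). Neither overlapped between populations. Gfi1b, the erythroid and megakaryocyte relative of Gfi1, fell (-3.30), as did Zfpm1 (-2.92) and Gata2, which also serves mast cells and stem cells (-1.32), the last from 169.2 ± 16.5 to 67.8 ± 7.98 FPKM. The 2 that rose were Myb, counted above as well, and Lyl1 (0.63, not called with library totals), and Lmo2, the most abundant member, fell by 0.69.

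Of 37 erythroid genes tested, 17 fell and 4 rose (median -1.13). Car1, carbonic anhydrase 1, was at 486.8, 499.2 and 491.7 FPKM in CMPs and 9.97, 9.09 and 11.6 in GMPs (-5.60 ± 0.10, edgeR adjusted p = 2.8e-08), a 48.3-fold difference, and the water channel gene Aqp1 (-5.10) and the blood group gene Ermap (-5.0) fell as well. Epor fell from 21.7, 23.3 and 19.5 to 1.38, 1.11 and 1.0 FPKM (-4.21 ± 0.11). Alas1, the rate-limiting enzyme of heme synthesis outside red cells, rose from 59.0, 72.5 and 75.7 to 663.0, 703.9 and 592.3 FPKM (3.25 ± 0.11), and the mitochondrial carriers Abcb10 (1.12) and Slc25a37 (0.64) and the transferrin receptor gene Tfrc (0.52) were the other 3 that rose, the last 2 not called with library totals. Of other heme synthesis enzymes, Alad (-1.13) and Urod (-0.51) fell, and Uros (-0.13) and Fech (0.12) were not called. Globin levels were low and varied between mice. Hba-a1 was at 15.5, 21.8 and 7.5 FPKM in CMPs and 21.7, 5.72 and 6.94 in GMPs, and Hbb-bt at 10.1, 14 and 7.18 against 14.7, 4.24 and 3.42, with mouse 300 the only one higher in GMPs. Neither was called, but without mouse 300 or mouse 309 Hbb-bt was called lower (-1.41 and -0.54), and reads of these gene copies cannot be assigned with certainty.

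Megakaryocyte genes were lower in GMPs: 21 of 26 tested fell and 5 were not called (median -2.30). Pf4, platelet factor 4, was at 449.6, 329.5 and 364.9 FPKM in CMPs and 65.0, 31.7 and 86.0 in GMPs (-2.74 ± 0.21, edgeR adjusted p = 1.6e-05), Itga2b, the CD41 gene, fell by 1.5, and F2r, a thrombin receptor gene (-3.61), and Gp5, a platelet glycoprotein gene (-3.43), fell more. Every GMP library was below every CMP library for Pf4 and Itga2b. Mouse 305 was the lowest in 23 of the 26 genes in GMPs. The markers Pf4, Gp1ba and Gp9 (3 of 3 called lower) summed to 356.0 to 486.5 FPKM in CMPs and 36.8 to 93.8 in GMPs, so GMPs still held a measurable level.

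Stem and multipotent progenitor genes behaved likewise, with 22 of 32 tested lower and 10 not called (median -2.00). Flt3, the receptor of lymphoid and multipotent progenitors, was at 49.2, 51.1 and 62.1 FPKM in CMPs and 5.37, 5.37 and 7.05 in GMPs (-3.19 ± 0.07, edgeR adjusted p = 3.5e-08). Robo4, a guidance receptor gene of endothelial and stem cells (-4.89), Slamf1, the CD150 gene (-4.55), and the transcription factor gene Mycn (-4.11) fell most. Hoxa9 (-0.32), Hoxa7 (-0.27) and Cd48 (-0.12) were not called. Of 22 lymphoid genes tested, 5 fell and 17 were not called (median -0.91). Only 9 of the 22 had a mean above 1 FPKM, and the rest could not be called at any size of change. An edgeR adjusted p under 0.1 was reached by 15 of the 22, against 45.7% of all genes tested. Dntt, the lymphoid DNA polymerase TdT, was at 20.6, 52.8 and 26.3 FPKM in CMPs and at 0.650, 0.809 and 0.881 in GMPs (-5.32 ± 0.20), highest in the CMPs of mouse 305, and the chemokine gene Ccl5 (-1.46), the kinase gene Lck (-1.39) and Ighm, the immunoglobulin μ chain gene (-1.15), fell. The T-cell markers Cd3e and Cd3g summed to at most 0.492 FPKM in any of the 6 libraries, and neither passed the filter on low counts. Cd3e had 0 counts in 1 CMP and 1 GMP library and Cd3g in 1 GMP library. Natural killer markers summed to 0.760 to 1.49 FPKM in CMPs and 0.228 to 0.699 in GMPs, and macrophage markers to 1.27 to 2.09 and 3.21 to 4.01. Of the macrophage markers Adgre1 was called higher, and the rise of the sum was that of Adgre1 only. C1qa was not called and went the other way, from 0.760, 1.49 and 0.910 FPKM in CMPs to 0.396, 0.398 and 0.381 in GMPs.

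Of 36 cytokine and chemokine receptors tested, 13 were higher and 10 lower (median -0.07, or 0.11 without mouse 309). Receptors that rose included Csf3r, for G-CSF, from 40.2, 35.4 and 37.8 to 90.4, 91.2 and 80.4 FPKM (1.21 ± 0.07), the GM-CSF receptor chains Csf2ra (1.38) and Csf2rb (1.20), the interleukin-5 receptor gene Il5ra (3.33, or 4.01 without mouse 300), the chemokine receptor gene Ccr1 (2.22) and Ifngr1 (1.37), the most abundant. Epor and Flt3, given above, were among those that fell. Csf3r and Csf2rb did not overlap between populations, whereas Csf1r did.

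Of 8 subunits of the phagocyte oxidase and its proton channel 7 rose (median 1.07), led by the channel gene Hvcn1 (2.48), Cybb (1.96), the catalytic subunit, and Ncf1 (1.48), while Rac1 was not called (-0.03). Of 41 sensing and adhesion receptors 12 rose and 3 fell (median 0.30, and 5 lower with library totals). The C-type lectin genes Clec4a2 (5.25) and Clec5a (3.26) rose most, and Itgb7 (-1.53), an integrin subunit gene, and Clec4d (-1.42), another lectin gene, fell. Of 30 lysosomal genes 15 rose and 1 fell (median 0.52), with the galactosidase gene Gla (1.55) and the cathepsin genes Ctsh (1.24) and Ctsz (1.06) in front.

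The secretory pathway rose almost as a whole. Of 39 tested genes of protein translocation and folding in the endoplasmic reticulum, 37 were higher and 2 not called, with a median of 0.95, and the changes of the called genes lay between 0.50 and 1.77. Calr, the chaperone calreticulin, was at 806.2, 838.8 and 873.4 FPKM in CMPs and 2819, 2507 and 2619 in GMPs (1.66 ± 0.10, edgeR adjusted p = 5.5e-06), and Sdf2l1, a chaperone cofactor, and P4hb, protein disulfide isomerase, rose by 1.77 and 1.63. Glycolysis and the pentose phosphate pathway rose in 15 of 24 and fell in 4 (median 0.69). The hexokinase gene Hk3 rose by 1.83 (70.2 ± 2.35 to 250.3 ± 15 FPKM), Ldhb by 1.89 and the pentose phosphate dehydrogenase gene Pgd by 1.71, while the aldolase gene Aldoc (-1.56), the glucose transporter gene Slc2a3 (-1.32) and the phosphofructokinase gene Pfkm (-1.20) fell. Gapdh, a frequent reference gene, rose by 0.68.

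**Figure D4:**
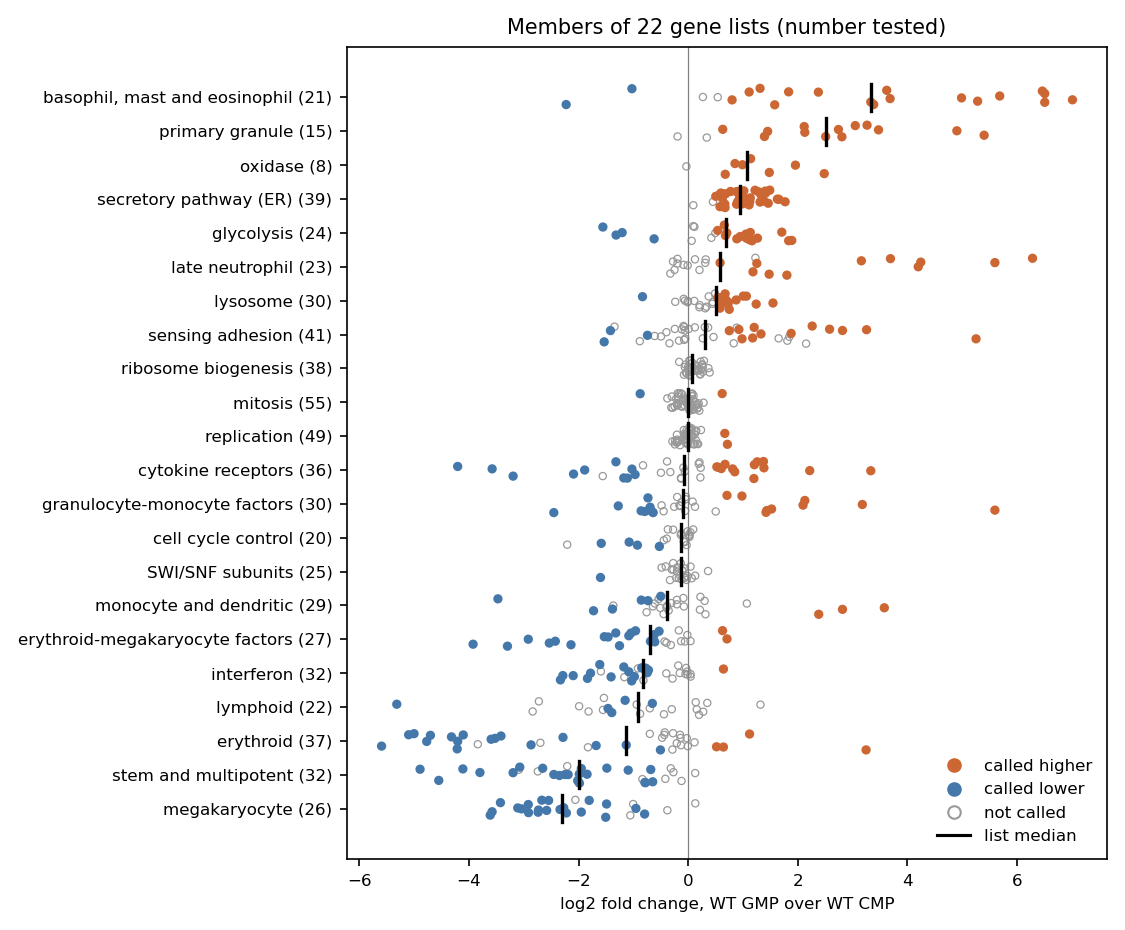
Log2 fold change of GMP over CMP (horizontal axis) of each tested member of 22 gene lists; orange and blue points were called higher and lower, open circles were not called, black bars are list medians, and the number tested stands in brackets. Medians run from 3.33 for basophil, mast cell and eosinophil genes to -2.30 for megakaryocyte genes, while the replication, mitosis and ribosome biogenesis lists sit tightly around 0.

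Proliferation genes hardly differed. Of 49 replication genes 2 (Rrm2, 0.72, and Cdc45, 0.67) were called, both higher, with a median of -0.01. Among 55 mitosis genes 1 (Sgo2a, not called with library totals) was higher and 1 (Cdc25b, -0.88) lower, with a median of 0.00. Of 38 ribosome biogenesis factors 0 were called by edgeR or by DESeq2 (median 0.07, or -0.08 with library totals). The called shares of these lists were below the background shares of 8.52% and 9.55%. An edgeR adjusted p under 0.1, whatever the size of the change, was reached by 14, 21 and 11 members of these lists, in that order. Over all genes tested the share was 45.7%. Of the ribosome biogenesis factors 11 had an unadjusted p under 0.05, with changes too small for the limit on size. Mki67, the Ki-67 gene, was at 75.0, 76.2 and 74.1 FPKM in CMPs and 51.6, 79.4 and 61.8 in GMPs (log2 fold change -0.25, 95% interval -0.51 to 0.01). Of 20 cyclins, their kinases, inhibitors and E2F factors, 4 fell (7 with library totals) and 16 were not called, among the former Ccnd1, the cyclin D1 gene (-1.59), E2f2 (-1.08) and the CDK inhibitor gene Cdkn2d (-0.93).

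Interferon-stimulated genes were lower in GMPs: 17 of 32 fell and 1, Gbp3 (0.64, not called with library totals), rose (median -0.82). Rtp4 was at 5.35, 9.64 and 3.66 FPKM in CMPs and 1.03, 1.67 and 0.893 in GMPs (-2.33 ± 0.15, edgeR adjusted p = 6.1e-06), and Ifi44 (-2.29) and Ifi27l2a (-2.10) fell. Mouse 305 was the highest in 27 of the 32 in CMPs and in 26 in GMPs, and the fall held in each mouse for Rtp4 and without overlap. All mice had received poly(I:C) 4 weeks before, and there was no group without it.

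The 15 largest rises and 15 largest falls among genes that moved alike in all mice were mostly outside the lists. Besides Epx, Prg2, Prss34, Prg3, Ear6 and Hsd11b1, the rises were the maltase gene Mgam (6.90), the scavenger receptor gene Olr1 (6.56), the acyltransferase gene Mogat2 (6.55), the sphingomyelin synthase gene Sgms2 (6.50, or 7.46 with a length offset), the sulfotransferase gene Chst13 (5.79), Prom1, the CD133 gene (5.67, or 4.89 with that offset), Angptl8, and the long non-coding RNA genes 4933440M02Rik and Gm28086. Angptl8 was listed at 0 in the CMPs of mice 305 and 309 and at 0.0479 FPKM in those of mouse 300, against 2.31, 2.26 and 1.92 FPKM in the GMPs of mice 300, 305 and 309. Gm28086 had 0 counts in every CMP library and 18, 17 and 16 in GMPs, at least 5.46-fold higher against a floor of 3 counts in each CMP library. Olr1, for example, was at 0.204, 0.0906 and 0.154 FPKM in CMPs and at 14.1, 14.4 and 13.6 in GMPs. Besides Car1, Aqp1, Ermap, Dntt and Robo4, the falls were the matrix metalloproteinase gene Mmp14 (-5.78, from 9.96, 7.78 and 9.38 to 0.154, 0.138 and 0.202 FPKM), Phlda2, the mitochondrial carrier gene Slc25a21, the red cell pyruvate kinase gene Pklr (-5.36, or -4.72 with that offset), Zg16, the phosphatase gene Ptpn14, the pseudokinase gene Trib2 (-5.13), the protease gene Prss50 and the antisense genes Asb17os and Gm15915, whose reads cannot be told from those of overlapping genes. Both sets lay at or beyond 4.89 in size on the log2 scale.

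Several of the genes that changed more than 4-fold were neighbours on the chromosome (GRCm38, GENCODE coordinates, gaps of at most 50000 bases). On chromosome 11, Mpo and Epx lay in a run of 5 called genes between positions 87760541 and 87875536 that also held Lpo, another peroxidase gene. Prtn3 and Elane were adjacent on chromosome 10 between 79874476 and 79888215, Mcpt8 and Ctsg on chromosome 14 between 56082166 and 56102574, and Prg2 and Prg3 lay in a run on chromosome 2 starting at 84980461. Of the genes that rose 65 stood in 29 such runs and of those that fell 37 in 15, out of 239 and 306 called beyond 2 on the log2 scale. The number of runs that position alone would give was not estimated.

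Values in the MEPs of the same mice are set beside these (both comparisons share the CMP libraries, so no test was made between them). Klf1 was at 296 ± 30.5 FPKM, Gata1 at 199 ± 7.59 and Car1 at 3765 ± 724 FPKM in MEPs (n = 3), above both CMPs and GMPs, and the erythroid list had a median log2 fold change of 2.40 from CMP to MEP against -1.13 from CMP to GMP. Pf4 (7.52 ± 5.22 FPKM) and Flt3 (1.93 ± 1.49 FPKM) were lower in MEPs than in CMPs too, and the medians of the megakaryocyte and stem lists were -4.34 and -3.16 there. Mpo was at 15.1 ± 6.81 FPKM and Elane at 7.07 ± 2.25 FPKM in MEPs, so that CMPs lay between the other populations, and the secretory list, which rose in GMPs, had a median of -0.08 in MEPs.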

How the data were processed

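RNA from sorted marrow cells was poly(A)-selected and sequenced by the authors, who quantified transcripts with kallisto on the mouse GRCm38/mm10 Ensembl transcripts and named DESeq2 for their own comparisons. They deposited, per library, estimated counts, TPM and effective lengths of 115088 transcripts. Whether strand was used is not given in the sources used here. Estimated counts were summed per gene through GENCODE vM21 of the same build (99.2% of transcripts matched, at most 0.288% of counts did not), rounded, filtered with filterByExpr, scaled by TMM and tested with edgeR 4.0.16 (R 4.3.3), quasi-likelihood, Benjamini-Hochberg adjustment, two-sided, with mouse as a block. FPKM used the TPM-weighted effective length of a gene. At 42575696 to 60703599 counts per library, precision rests on the spread between the 3 mice, which are separate animals, and low genes are the least certain.

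The pairing comes from the mouse number in the titles. Deviations from the population means correlated at 0.080, 0.29 and 0.30 between the CMP and GMP libraries of mice 300, 305 and 309, over 12548 genes, against -0.36 to 0.13 between libraries of different mice. The CMP library of mouse 300 correlated more with the GMP library of mouse 309 (0.13) than with its own.

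The gene lists (23) and the comparison were chosen with earlier results of these data known. The text names the 15 largest rises and the 15 largest falls among called genes that moved alike in all 3 mice without overlap, in each list the 3 called members with the largest change in each direction and the most abundant member, a set of lineage regulators, receptors and granule genes, and uncalled members by value. Further marker and eosinophil genes (Cpa3, Mcpt8, Ear1, Ear2, Gp1ba, Gp9, Retnlg, Alad, Urod, Tfrc) and neighbours on the chromosomes such as Lpo were named outside that rule. Of the listed genes, Ahsp had no entry in the annotation and 17 did not pass the filter. A few members that this rule names are not reported here. The fit was also run on simulated counts in which a small share of genes changed and no mouse effect was present. That run could not test the scaling or the block. Alternatives were no block, other scalings, no filter, DESeq2 1.42.0, a length offset, 9 or 18 libraries in 1 fit (the former gives the MEP values), other thresholds and each mouse left out. Knockout libraries entered only the alternative with 18, and stem cell libraries were not used here.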

Additional observations from a re-analysis of the deposited data

How the results depend on the processing

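Without the replicate block 1443 genes were higher and 1593 lower, and the pairing changed no call among the 142 genes tracked. Some list counts changed, such as the interferon genes lower in GMPs (15 instead of 17). The edgeR adjusted p of Irf8 was 0.085 without the block and 0.00059 with it. Scaling by library totals gave 1083 higher and 2183 lower, with 87.95% of the calls kept. Leaving out a mouse gave 1410 to 1518 higher and 1631 to 1656 lower, keeping 91.8% to 94.7% of the calls. No called gene was called in the opposite direction under any alternative run. The direction turned for uncalled genes near 0. With library totals these were Cdk4 (-0.13), Laptm5 (-0.040), Npm1 (-0.12) and Ifitm2 (-0.11), and with the length offset Cdk4 (-0.063) and Smarce1 (0.061). Without 1 mouse they ranged from -0.13 to 0.025 for Rac1, -0.064 to 0.11 for Cdk4, -0.17 to 0.075 for Csf1r, -0.096 to 0.14 for Ngp, -0.067 to 0.035 for Smarce1, -0.045 to 0.14 for Npm1 and -0.039 to 0.12 for Ifitm2. Ly96 lost its call in DESeq2 (-0.74) and without any 1 of the mice (-0.84 to -0.65). With library totals Sgo2a (0.47), Gbp3 (0.49), Lyl1 (0.48) and Slc25a37 (0.49) lost theirs and Cd34 (-0.62) was called lower. Hbb-bt was also called without the filter (-0.70). The causes were not tested. With 3 mice, small changes of low genes are the least certain.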

Other observations

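The Gimap genes, GTPases known from lymphocytes, were outside the lists and were singled out after their values were seen. Gimap1 was at 27.4 ± 3.67 FPKM in CMPs and 5.86 ± 1.52 in GMPs (SD, n = 3; log2 fold change -2.24 ± 0.14 SE, edgeR adjusted p = 5.1e-06), and Gimap6 at 25.6 ± 5.47 and 4.31 ± 0.941 FPKM (-2.57 ± 0.094). Gimap5 (-2.76), Gimap8 (-2.30) and Gimap9 (-0.87) fell too, and every GMP library was below every CMP library in these 5. Gimap1, Gimap5, Gimap6 and Gimap8 lay in a run of 6 called genes on chromosome 6 between 48647234 and 48755986 (GRCm38). Gimap3 (-0.86), Gimap4 (-1.24) and Gimap7 (-3.99) were not called, with means below 1 FPKM.

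Joining segments of the immunoglobulin heavy chain locus, Ighj1 (-2.88), Ighj2 (-3.16), Ighj3 (-2.01) and Ighj4 (-3.43), were lower in GMPs on chromosome 12 between 113428514 and 113429833. These segments are short, so their FPKM values are imprecise, and Ighj1 was at 107.4 ± 59.9 FPKM in CMPs. Serpinb1a, an inhibitor of the granule proteases, rose from 85.2 ± 5.40 to 225.3 ± 35.7 FPKM (1.39 ± 0.082, edgeR adjusted p = 4.3e-06).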
